A study of Homo sapiens with 12 samples.

Results

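The variants described here are premature stop codon contexts in which the codon just before the stop codes for threonine. They belong to pools of reporter mRNAs that carry a window of 10 bases: the penultimate codon at bases 1 to 3, the last codon at bases 4 to 6, a stop codon or the tryptophan codon TGG at bases 7 to 9, and a following base at position 10. Members were chosen by sequence alone, as windows with TAA, TAG or TGA at bases 7 to 9, 1 of the 4 threonine codons at bases 4 to 6, and no stop codon at bases 1 to 3. The sequence rule allows 2928 such windows. Of these, 2085 (71.2%) are listed for the EJC-independent reporter and 2461 (84.1%) for the EJC-enhanced reporter, among 29088 and 34599 listed stop codon windows with no earlier stop. At least 1 table lists 2624 members and both tables list 1922, of 55109 distinct windows listed in the series.

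The cells were HEK293T, an established human embryonic kidney line, labelled wild type apart from a reporter pool placed at a single genomic position by Cre-Lox recombination. The reporters are called EJC-independent and EJC-enhanced in the labels, where EJC stands for exon junction complex. Each was measured in 3 libraries from cells given DMSO, the vehicle, and 3 libraries from cells given SMG1i, an inhibitor of nonsense-mediated mRNA decay (NMD), at 0.5 µM for 24 hours. This makes 4 groups and 12 libraries, and the labels do not say whether the 3 libraries of a group came from separate cultures. If they did not, the deposited p-values measure only technical spread. The tables give 1 comparison of the treatments per window and no value per library, so values are shown per window, with the standard error (SE) of the deposited comparison. No marker gene of the cell line was analysed here, and the windows have no genome coordinates beyond their place in the reporter. The chromosome and position of the integrated reporter were not given in the sources used here.

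NMD degrades mRNAs on which translation ends early. SMG1 is the kinase that phosphorylates UPF1, a step needed for the decay, so blocking it raises the level of NMD targets. An exon junction complex, left on the mRNA upstream of each splice junction, strengthens the decay when it lies downstream of the stop codon. When a ribosome stops, the tRNA of the last codon still holds the finished peptide through the last amino acid, and release factors cut that bond. The last codon therefore sets the amino acid and the tRNA present at the cut, and the title of the series names the rate of this peptidyl-tRNA hydrolysis as its subject. Threonine is a small amino acid with a hydroxyl group and a branched side chain, and its codons share the bases A and C with any base in the third place.

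The frame with the deepest coverage is printed first because it holds every threonine codon, stop codon and control side by side. It has the proline codon CCC at bases 1 to 3 and C at base 10, and is the frame with the highest smallest count (1017) of 53 that were complete in both tables. Capitals mark the last codon. TAA is called ochre, TAG amber and TGA opal. The opal windows and the tryptophan controls of this frame read as follows.

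Thr-ACA opal: cccACAtgac
Thr-ACC opal: cccACCtgac
Thr-ACG opal: cccACGtgac
Thr-ACT opal: cccACTtgac
Thr-ACA tryptophan control: cccACAtggc
Thr-ACC tryptophan control: cccACCtggc
Thr-ACG tryptophan control: cccACGtggc
Thr-ACT tryptophan control: cccACTtggc

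Response here means the log2 fold change of a window's RNA from DMSO to the inhibitor, so a positive response is more RNA under the inhibitor. The numerator is not stated, and this direction was set because stop codon windows and TGG controls part that way. In the authors' deposited table of EJC-independent windows, the opal windows had responses of 2.22 ± 0.11 (SE) for cccACAtgac, 1.96 ± 0.21 for cccACCtgac, 2.18 ± 0.26 for cccACGtgac and 2.20 ± 0.12 for cccACTtgac. Their controls in that table were at -0.04 ± 0.06 for cccACAtggc, 0.07 ± 0.05 for cccACCtggc, 0.65 ± 0.08 for cccACGtggc and 0.08 ± 0.06 for cccACTtggc. All 12 stop codon windows of the frame responded, from 1.49 to 2.22 with a mean of 1.98, and none overlapped the controls. The ACG control was the exception among the controls, with a deposited adjusted p of 1.3e-16, while the other 3 did not pass.

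The same 12 windows in the authors' deposited table of EJC-enhanced windows lay between 2.09 and 2.70, with a mean of 2.35 and larger standard errors (0.24 to 0.42, against 0.07 to 0.26). The controls lay between 0.10 and 0.24, and none passed the deposited test. In this frame the other last codons gave mean EJC-independent responses of 2.14 for glycine, 1.94 for serine, 1.81 for alanine and 1.51 for tyrosine. The corresponding EJC-enhanced means were 2.28, 2.27, 2.32 and 2.43.

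Over all members, nearly every window had a positive response, which is more RNA under the inhibitor in the direction set above. That direction was set with the stop codon windows, so it is not itself a result. With a mean normalized count of at least 10, 2079 members of the EJC-independent table and 2458 of the EJC-enhanced table were used, which leaves out 6 and 3. EJC-independent members had a mean response of 2.08 (SD 0.66 over windows), a 4.24-fold rise, with responses from -0.90 to 5.42. By the deposited adjusted p at 0.05, 1869 of 2078 tested members rose (89.9%) and 0 fell, also at an unadjusted p under 0.05, against 84.9% and 0.0104% of all stop codon windows in that table. The median response of the members was 2.06, beside 1.69 over all 28964 stop codon windows. EJC-enhanced members had a mean response of 2.33 (SD 0.72), a 5.03-fold rise, from -0.85 to 5.79. Here 2132 of 2444 tested members rose (87.2%) and 0 fell, again also at an unadjusted p under 0.05, against 86.1% and 0.00291% of all stop codon windows, and the median was 2.33 beside 2.27 over all 34522.

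The threonine codons without a stop codon stayed near 0. The 751 TGG controls of the EJC-independent reporter had a mean response of -0.05 (SD 0.49), with 21 called higher and 50 called lower by the deposited test. Together these were 9.45% of the controls, against 8.12% of all TGG windows in that table. The 923 EJC-enhanced controls had a mean of 0.07 (SD 0.59), with 25 called higher and 8 lower, or 3.58% against 4.14%. These shares were close to those over all TGG windows. The 0 point, from which the fold rises above are also measured, depends on how the authors scaled the libraries. The deposited comparisons do not show that scaling, and where it places 0 was not tested. Differences between windows of the same table do not depend on it.

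Each stop codon window was then set against the TGG window with the same bases 1 to 6 and the same base 10, which holds the flanking sequence fixed. EJC-independent threonine stops exceeded their controls by 2.14 (95% interval 2.11 to 2.18 over 1774 pairs), or 4.42-fold, and 1761 of the 1774 differences were above 0. Stops after the other amino acids exceeded theirs by 1.695 (1.685 to 1.705, 22301 pairs), so the intervals did not meet. A two-sided Wald test on the deposited standard errors, adjusted over all pairs of the table, called 1514 threonine pairs higher (85.3%) and 0 lower (0 at an unadjusted p under 0.05), against 77.9% and 0.0457% of all pairs. For the EJC-enhanced reporter the threonine difference was 2.28 (2.24 to 2.31, 2396 pairs) and that of the other amino acids 2.26 (2.25 to 2.27, 30263 pairs). There 1924 threonine pairs were called higher (80.3%) and 1 lower, against 78.6% and 0.0245% of all pairs. The single lower pair, named after its values were seen, was agaACTtaat and its control agaACTtggt. In the authors' deposited table they were at 1.75 ± 0.58 (SE) and 4.29 ± 1.06. That control had a mean count of only 35.6, and the adjusted p of the difference in the Wald test was 0.0446.

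Intervals here and below are for means over windows, pairs or frames measured in the same libraries, not over cultures. They are narrower than the spread between single sequences, which the SD gives. They also treat the values as independent, although a control or window can enter several pairs, so they may be too narrow.

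The main comparison sets each threonine window against its frame, the mean over windows with other last amino acids that share bases 1 to 3, the stop codon and base 10. EJC-independent threonine windows lay 0.38 above their frame (0.35 to 0.41, SD 0.46, 697 frames), a 1.30-fold larger rise, and 591 of the 697 frames (84.8%) had threonine above the others. The excess was present with each stop codon, at 0.36 (0.30 to 0.43) before TAA, 0.36 (0.30 to 0.42) before TAG and 0.42 (0.36 to 0.48) before TGA. It was not seen before TGG, where threonine differed from its frame by -0.04 (-0.08 to 0.01, 242 frames). The same Wald test of each window against its frame mean, adjusted over the whole table, called 261 of 2079 members higher (12.6%) and 4 lower, against 2.18% and 1.91% of all stop codon windows. In the frame printed above, 10 of the 12 stop codon windows were above the frame mean and 5 were called. Those below it were cccACGtaac, at -0.02, and cccACGtagc, at -0.17, and neither was called. The median difference was 0.38 for the members and -0.01 over all windows. With the TGG window of the same context subtracted from each response, the mean was 0.46 and 112 of 1768 members (6.33%) were called higher, against 0.95% of all stop codon windows.

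For the EJC-enhanced reporter the same comparison gave 0.05 (0.02 to 0.09, SD 0.48, 722 frames), or 1.04-fold, and 396 of the 722 frames (54.9%) had threonine above the others. The TGG controls of that reporter differed from their frames by a like amount, 0.05 (0.01 to 0.09, 243 frames), and by 0.00 as a median over frames. With the TGG window of the same context subtracted, the EJC-enhanced value was 0.015, and without arginine, valine and isoleucine as penultimate codon it was 0.03 (-0.01 to 0.06, 572 frames). The test called 4 of 2458 members higher (0.163%) and 0 lower (73 at an unadjusted p under 0.05), against 0.139% and 0.029% of all stop codon windows. The median difference was 0.04 for the members and -0.02 over all windows. Single windows were less exact there, with a median standard error of 0.54 for a member against 0.35 in the EJC-independent table, so counts of calls are not compared across the tables.

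Ordered by this difference, threonine stood second of 20 amino acids in the EJC-independent table, at 0.39 per window. Glycine, the smallest amino acid, stood at 0.44, and the next were serine at 0.09 and aspartate at 0.09. Tyrosine was lowest, at -0.31. Threonine had 12.6% of its windows called higher and glycine 10.4%, serine 1.75% and tyrosine 0%. In the EJC-enhanced table aspartate (0.07), asparagine (0.06) and threonine (0.05) led an order that ended with lysine (-0.05), tryptophan (-0.06) and methionine (-0.08).

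Among the 4 synonymous codons the EJC-independent excess was alike: 0.41 (0.35 to 0.48, 446 windows) for ACG, 0.41 (0.36 to 0.46, 554) for ACT, 0.40 (0.36 to 0.44, 638) for ACC and 0.34 (0.27 to 0.41, 441) for ACA. They held places 4, 5, 6 and 8 among 61 sense codons, behind 3 glycine codons, and the fourth glycine codon held place 7. Compared directly in the same context, the 6 pairs of threonine codons differed by -0.06 to 0.03 on average, and every one of the 6 intervals included 0. The widest interval was that of ACA minus ACG, -0.16 to 0.04 over 326 pairs. Of 2459 synonymous threonine pairs, 12 were called (0.488%), against 0.428% of all synonymous pairs. EJC-enhanced pair means lay between -0.03 and 0.05 with every interval including 0, and 0 of 3242 pairs were called (257 at an unadjusted p under 0.05), against 0.00307%. ACC had the deepest coverage of the codons, with a median count of 376 in the EJC-independent table against 151 for ACA, and the share of windows called against the frame was largest for ACC (16.5%) and smallest for ACA (8.84%).

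A single base was changed in the next comparison. A change of base 4 turns a threonine codon into serine, proline or alanine, and a change of base 5 into asparagine, lysine, serine, arginine, isoleucine or methionine. The best covered member of the printed frame, picked after its values were seen, shows the design and is given with its 6 neighbours and with glycine, which differs at both bases.

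threonine: cccACCtaac
serine by base 4: cccTCCtaac
proline by base 4: cccCCCtaac
alanine by base 4: cccGCCtaac
asparagine by base 5: cccAACtaac
serine by base 5: cccAGCtaac
isoleucine by base 5: cccATCtaac
glycine by bases 4 and 5: cccGGCtaac

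In the authors' deposited table of EJC-independent windows, cccACCtaac was at 2.00 ± 0.07 (SE) and cccGGCtaac at 2.02 ± 0.10. The neighbours in that table were all lower: cccAGCtaac at 1.83 ± 0.12, cccTCCtaac at 1.74 ± 0.04, cccAACtaac at 1.61 ± 0.11, cccATCtaac at 1.56 ± 0.08, cccCCCtaac at 1.56 ± 0.04 and cccGCCtaac at 1.55 ± 0.06. The Wald test, adjusted over all pairs that differ in base 4 or 5, called the differences from proline (adjusted p = 3.79e-06), alanine (6.61e-05), isoleucine (0.00253) and the base-4 serine (0.0457). Those from asparagine (0.0743) and the base-5 serine (0.611) did not pass. In the authors' deposited table of EJC-enhanced windows the same 8 windows lay between 1.98 and 2.50, with cccACCtaac at 2.39 ± 0.28, and no pair passed.

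Over all contexts of the EJC-independent reporter, threonine exceeded each of these neighbours. The differences were 0.28 (0.25 to 0.31, 1932 pairs) from serine TCN, 0.32 (0.29 to 0.35, 2013) from proline and 0.38 (0.34 to 0.42, 1728) from alanine. For a change of base 5 they were 0.34 (0.28 to 0.40, 703) from serine AGC and AGT, 0.37 (0.26 to 0.47, 323) from lysine, 0.40 (0.30 to 0.50, 362) from arginine, 0.41 (0.36 to 0.45, 1199) from isoleucine, 0.55 (0.49 to 0.61, 699) from asparagine and 0.58 (0.47 to 0.68, 244) from methionine. Serine, the other small amino acid with a hydroxyl group, was thus exceeded whichever of its codon boxes was used. Glycine was not exceeded: threonine minus glycine was -0.05 (-0.10 to 0.00, 1128 pairs), and 0.019 with the TGG windows subtracted.

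Of 9203 single-base pairs in that table, 496 were called with threonine higher and 14 with threonine lower, together 5.54%, against 2.84% of all codon pairs that differ in base 4 or 5. With the TGG windows subtracted, 304 of 7349 pairs were called (4.14%), 292 of them with threonine higher, against 1.84% of all such codon pairs. The share of pairs with threonine above its neighbour ran from 67.2% (lysine) to 81.5% (asparagine). The TGG windows of the neighbours named above differed by -0.12 to 0.00 in the EJC-independent table, and each interval included 0. In the EJC-enhanced table the TGG windows differed by 0.00 (glycine) to 0.15, with intervals above 0 for serine TCN at 0.07 (0.02 to 0.11), asparagine at 0.10 (0.02 to 0.18) and methionine at 0.15 (0.01 to 0.28). Before a stop codon, the EJC-enhanced pair means ran from -0.02 (asparagine) to 0.17 (arginine, 0.07 to 0.26). Intervals were also above 0 for serine TCN at 0.06 (0.03 to 0.10), proline at 0.07 (0.03 to 0.10) and serine AGC and AGT at 0.09 (0.03 to 0.16). Those of the other neighbours included 0. In the same table threonine was above its neighbour in 49.0% (asparagine) to 57.5% (arginine) of pairs. There 10 pairs of 11979 were called with threonine higher and 2 lower, together 0.1%, against 0.0745%. The 2 lower pairs, named after their values were seen, were tctACTtaag below tctAATtaag and gcgACAtaat below gcgTCAtaat. In the authors' deposited table they were at 2.63 ± 0.53 against 7.23 ± 0.78 and at -0.20 ± 0.96 against 4.68 ± 0.65. The window gcgACAtaat had a mean count of 89.6 and no adjusted p there.

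After threonine, EJC-independent responses differed between stop codons. Mean responses were 2.24 before TGA (679 windows), 2.04 before TAA (698) and 1.98 before TAG (702). In matched contexts TGA exceeded TAG by 0.24 (0.17 to 0.31, 556 pairs) and TAA by 0.15 (0.09 to 0.22, 566), while TAA and TAG differed by 0.03 (-0.04 to 0.10, 573). The other amino acids gave 0.19, 0.15 and 0.05 for the same pairs. The difference between threonine and the others was 0.04 (-0.03 to 0.12) for TGA minus TAG and 0.01 (-0.06 to 0.08) for TGA minus TAA, so neither was resolved from 0. The highest cell of codon and stop codon was ACT before TGA, at 2.28 (SD 0.62, 180 windows), and the lowest ACA before TAG, at 1.88 (SD 0.71, 158). EJC-enhanced means were 2.35 before TAA, 2.30 before TAG and 2.35 before TGA. The 3 matched differences there were 0.05 (-0.02 to 0.12) for TGA minus TAG, -0.02 (-0.09 to 0.05) for TGA minus TAA and 0.07 (0.00 to 0.14) for TAA minus TAG, each with an interval that included 0.

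Each base at position 10 differed from the mean of the other bases by less than 0.1. Against the mean of the other bases in the same EJC-independent context, A was 0.09 higher (0.01 to 0.17, 426 windows) after threonine and stop, and 0.07 higher (0.06 to 0.09) after the other amino acids. The remaining bases, with intervals that included 0, were at -0.05 for C, -0.04 for G and 0.03 for T. In the EJC-enhanced table G differed by -0.08 (-0.15 to -0.01, 574 windows) after threonine and by -0.05 (-0.07 to -0.03) after the others, and the other bases lay between 0.02 and 0.03.

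Responses also differed with the amino acid before threonine. EJC-independent members were highest after valine, at 2.43 (SD 0.77, 123 windows), isoleucine, at 2.29 (SD 0.89, 87), and methionine, at 2.22 (SD 0.85, 23). They were lowest after the basic arginine, at 1.73 (SD 0.52, 192), then histidine, at 1.97 (SD 0.56, 88), and cysteine, at 1.98 (SD 0.71, 76). Windows with other last amino acids had means of 1.82 after valine, 1.78 after isoleucine and 1.56 after arginine. Relative to their frames, which share the penultimate codon, threonine windows were higher after all 20 penultimate amino acids, with every interval above 0. The excess was smallest after arginine, at 0.18 (0.10 to 0.25), glycine, at 0.25 (0.12 to 0.39), and asparagine, at 0.29 (0.07 to 0.50). It was largest after valine, at 0.61 (0.47 to 0.74), methionine, at 0.54 (0.19 to 0.89), and lysine, at 0.53 (0.26 to 0.81). Between arginine and valine the intervals did not meet. Members with threonine at both codons gave 0.46 (0.36 to 0.56, 154 windows).

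EJC-enhanced members were highest after tryptophan, at 2.65 (SD 0.93, 37 windows), valine, at 2.57 (SD 0.71, 156), and isoleucine, at 2.55 (SD 0.70, 112). The lowest followed glutamate, at 2.16 (SD 0.84, 50), aspartate, at 2.17 (SD 0.86, 79), and cysteine, at 2.19 (SD 0.77, 90). Relative to the frame, the interval was above 0 after 4 of 20 penultimate amino acids: 0.48 (0.18 to 0.78) after tryptophan, 0.30 (0.18 to 0.41) after valine, 0.28 (0.15 to 0.41) after isoleucine and 0.09 (0.01 to 0.18) after leucine. After threonine it was -0.06 (-0.18 to 0.05). By mean response, valine and isoleucine before threonine stood among the 3 highest penultimate amino acids in each table. By the EJC-independent excess over the frame, isoleucine was at 0.52, below valine, methionine and lysine. With other last amino acids the EJC-enhanced means were 2.17 after tryptophan, 2.28 after valine and 2.27 after isoleucine. These are 20 intervals a table, not adjusted for their number, and across the 20 penultimate amino acids the member means of the reporters had a Pearson correlation of 0.41 and a Spearman correlation of 0.30, as a description.

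The same windows were compared between the reporters after each was centred on its own frame, because the tables were normalized apart. Over 661 shared frames the threonine excess was 0.29 larger (0.24 to 0.35) in the EJC-independent reporter than in the EJC-enhanced reporter, and 468 of these frames differed in that direction. Window by window the test of the difference, adjusted over all shared stop codon windows, called 5 of 1917 members higher in the EJC-independent table (0.261%) against 0.0955% of all, and 2 higher in the EJC-enhanced table against 0.294% of all. The difference is one of means over many windows, and the count of single windows moved with the settings, from 5 to 9 with a count minimum of 50 and to 0 with the TGG windows subtracted. The 5 were ctaACCtaag, ccaACTtaag, ttcACGtagc, actACAtgat and agcACCtgac, and the 2 were gggACCtaag and aatACAtgac, all named after their values were seen.

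The most significant of them, ctaACCtaag, was at 3.28 ± 0.36 in the authors' deposited table of EJC-independent windows and at 1.14 ± 0.41 in that of EJC-enhanced windows (adjusted p of the difference = 0.000611). The window aatACAtgac went the other way, at 0.35 ± 0.16 against 4.36 ± 0.87 in the authors' deposited tables (adjusted p = 0.0338). Across the 1917 shared members the responses of the reporters had a Pearson correlation of 0.03 and a Spearman correlation of 0.04. With a count of at least 100 in both tables (1233 members) they were 0.03 and 0.04. This is a description of windows that share their 10 bases but no library. The measurement error within each table is given next, and the cause of the low correlations was not tested.

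The deposited standard errors accounted for 63.8% of the variance of EJC-independent member responses and 79.7% of that of EJC-enhanced responses. Among members with a count of at least 100 the shares were 51.4% and 70.4%. Of the EJC-independent variance over all members, 6.12% lay between penultimate amino acids, 2.70% between stop codons, 0.225% between bases at position 10 and 0.186% between the 4 threonine codons. The EJC-enhanced shares were 2.17%, 0.0847%, 0.280% and 0.166%. These splits have 20, 3, 4 and 4 groups, and a finer split takes a larger share, so the shares are not ranked.

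A level in each treatment can be worked out from the deposited mean count and fold change, taking 3 libraries per treatment. Relative to their frames on this log2 scale, EJC-independent threonine stops were at -0.44 (-0.52 to -0.35, 697 frames) under DMSO and at -0.06 (-0.13 to 0.02) under the inhibitor. The corresponding TGG windows were at 0.09 (-0.06 to 0.24, 242 frames) and 0.06 (-0.09 to 0.21). Stop windows were thus below their frames under DMSO, while the TGG intervals included 0. EJC-enhanced threonine stops were at 0.04 (-0.01 to 0.09) and 0.09 (0.05 to 0.13), and their TGG windows at 0.22 (0.15 to 0.30) and 0.28 (0.21 to 0.34). How many copies of each window were integrated is not known, so these levels are a description of means over many frames. With a count minimum of 50 the EJC-independent levels were -0.58 under DMSO and -0.18 under the inhibitor, and the EJC-enhanced levels turned to -0.090 and -0.034.

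Single members differed widely, and the extremes among those with a count of at least 100 (1479 EJC-independent and 1626 EJC-enhanced) were imprecise. Their sequences are printed because they mark the ends of the range.

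EJC-independent, highest: gtaACTtgat
EJC-independent, second highest: tatACTtgaa
EJC-independent, lowest: gttACCtagg
EJC-independent, second lowest: aatACAtgac
EJC-enhanced, highest: tggACGtgat
EJC-enhanced, lowest: ctgACAtgac

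In the authors' deposited table of EJC-independent windows, gtaACTtgat was at 3.84 ± 0.44, 1.85 above its frame (adjusted p = 0.0034), and its TGG partner was at 0.03 ± 0.37. The lowest, gttACCtagg, was at 0.32 ± 0.23, a difference of -1.27 from its frame (adjusted p = 0.000138), with its TGG partner at -0.77 ± 0.37. The 5 highest ran from 3.48 to 3.84, with 4 of 5 called above their frame, and the 5 lowest from 0.32 to 0.70, with 2 of 5 called below. These windows were picked by their response, so the calls are not separate evidence. All 5 highest had TAA or TGA as stop codon, and 4 of them TGA, while 698 of all 2079 members had TAA and 679 TGA. In the EJC-enhanced table the window gtaACTtgat was at 3.53 ± 0.52 and gttACCtagg at 3.42 ± 0.68. For gttACCtagg the differences from the frame differed between the reporters by -2.52 ± 0.73 (SE), which did not pass the Wald test (adjusted p = 0.0855).

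Besides aatACAtgac and gttACCtagg, the windows called under their frame in the EJC-independent table were ccaACTtgaa, at 1.18 ± 0.25, and tacACAtgag, at 1.23 ± 0.17, in the authors' deposited table. Their EJC-enhanced responses were 2.35 ± 0.37 and 3.60 ± 0.78. In the authors' deposited table of EJC-enhanced windows, tggACGtgat was at 5.79 ± 0.90 and ctgACAtgac, which has no adjusted p there, at -0.28 ± 0.84. The same windows were at 2.02 ± 0.26 and 2.39 ± 0.65 in the EJC-independent table. None of the 5 highest or the 5 lowest EJC-enhanced members was called against its frame. The 4 called above their frame in that reporter, named after their values were seen, were gtcACGtagt (3.77 ± 0.34), cagACCtgaa (4.27 ± 0.50), gatACTtaag (5.39 ± 0.84) and gggACCtaag (5.55 ± 0.81) in the authors' deposited table.

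Single TGG controls also lay far from 0. The threonine control accACAtgga was highest of the 578 with a count of at least 100 in the authors' deposited table of EJC-independent windows, at 1.78 ± 0.40, and was among the 3 lowest EJC-enhanced controls, at -1.16 ± 0.41. In the authors' deposited table of EJC-enhanced windows aggACAtggg was highest of 767, at 3.96 ± 0.87, and was at -0.35 ± 0.09 in the EJC-independent table.

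When ACG is followed by TAA or TGA and then G, the window holds GTAAG or GTGAG, letters that resemble the start of a 5′ splice site. They were searched from base 6 to base 10, where they overlap the stop codon and where their reverse complements cannot hold a stop codon. They occur in 2.79% of EJC-independent and 3.30% of EJC-enhanced members, against 2.86% and 3.23% of all stop codon windows. These members had a mean EJC-independent response of 2.17 (SD 0.70, 58 windows), beside 2.09 (SD 0.69, 388) for the other ACG members, and a mean EJC-enhanced response of 2.19 (SD 0.79, 81) beside 2.32 (SD 0.82, 463). Among ACG members with G at base 10, those with TAG and so without these letters were at 1.94 (SD 0.84, 35) and 1.88 (SD 0.82, 40). These differences were not tested, and splicing was not measured.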

How the data were processed

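For each reporter the authors deposited a table that compares SMG1i with DMSO, window by window, over 6 libraries. Per the file headers, a window has a mean normalized count (a signal averaged over libraries, with no raw counts), a log2 fold change and its standard error, the Wald score, and p-values before and after adjustment. The submitters' processing notes name DESeq and DESeq2, while versions, read processing and window assignment were not given in the sources used here. Depth per library is unknown, and the median of the mean counts is 246 in the EJC-independent and 155 in the EJC-enhanced table. Neither table states the numerator. TGG windows centre near 0 (-0.02 and 0.03) and stop codon windows are negative as deposited, so signs were reversed here to make a positive response more RNA under the inhibitor. Recomputing the Benjamini-Hochberg adjustment returned the deposited values.

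Windows whose mean count reached 10 with no stop codon at bases 1 to 6 were used. Frames needed at least 5 other windows. Differences between windows were averaged, with 95% intervals over contexts, and single differences were tested with two-sided Wald tests from the deposited standard errors, which treat the windows' errors as independent, with Benjamini-Hochberg adjustment over the whole table and a threshold of 0.05. The calculations were tested on simulated data and run in Python 3.11.15 with NumPy 2.4.6, pandas 2.3.3 and SciPy 1.17.1. Members, lists and tests were chosen with earlier results of these data known. Named windows are the complete frame with the highest smallest count, the 5 highest and 5 lowest members and 3 highest and 3 lowest TGG controls with a count of 100 or more in each table (the ends of each set are printed), the 3 highest and 3 lowest penultimate amino acids, and those marked as named after their values were seen. The sample mapping left no library without a group, and 0 columns belonged to other samples. Alternatives were count minimums, weights, medians, TGG subtraction, single stop codons, a threshold of 0.01 and the removal of 3 penultimate amino acids.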

Additional observations from a re-analysis of the deposited data

Results flagged for a closer look

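The threonine excess over the frame was 0.29 larger in the EJC-independent than in the EJC-enhanced reporter (95% interval 0.24 to 0.35 over 661 shared frames), which is a difference between the reporters under the same contrast.

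Windows left out of the members also responded. Where a stop codon stood at bases 1 to 3, threonine at bases 4 to 6 and TGG at bases 7 to 9, the mean response was 2.11 (SD 0.69, 25 windows) in the EJC-independent table and 2.29 (SD 0.92, 38 windows) in the EJC-enhanced table, against -0.05 and 0.07 for threonine TGG windows with no stop codon. By the deposited adjusted p, 22 of the 25 and 28 of the 38 were higher under the inhibitor. Of all stop codon windows with no earlier stop, 84.9% and 86.1% were called higher by the same test.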

How the results depend on the processing

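No paired analysis was possible because the tables hold 1 comparison per window and no value per library. For the same reason no replicate was left out, and neither other size factors nor a refit of the counts was run. A value counted as moved when it left the main 95% interval, or, for a count, when it changed by over 1.5 times. Among alternatives to the main values 167 stayed and 42 moved, and among the other values 438 stayed and 45 moved. Of 328 alternatives to values whose interval excluded 0, 2 changed sign, and of 251 to values whose interval included 0, 46 did. The cause was not tested for any of them.

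With a count minimum of 50, the levels of threonine stops were -0.58 under DMSO and -0.18 under the inhibitor in the EJC-independent table, and -0.090 and -0.034 in the EJC-enhanced table, where both changed sign, from 0.04 and 0.09. The EJC-enhanced stop minus TGG was 2.32, and 9 windows were called higher in the EJC-independent than in the EJC-enhanced table. Inverse variance weights gave a stop minus TGG of 2.09 and 2.33, and 8 such windows. As medians, the EJC-enhanced TGG difference from the frame changed sign, from 0.05 to -0.0013, and the EJC-enhanced levels were 0.087 and 0.15.

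With TGG subtracted, the EJC-independent excess over the frame was 0.46 with 112 members called higher, the difference from glycine 0.019, that from all single-base neighbours 0.41, and 292 neighbour pairs were called with threonine higher, as in the counts of pairs that follow. The EJC-enhanced values were 0.015 with 0 members called, and 0.014 from the neighbours with 1 pair called. Between the reporters it was 0.45 with 0 windows called.

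Members called higher in the EJC-independent table were 91 with TAA, 81 with TAG and 92 with TGA alone, where the TGA excess was 0.42, and called neighbour pairs 166, 169 and 158. EJC-enhanced members called were 1, 2 and 1, with 0 neighbour pairs called with TAG and 1 with TGA. Between the reporters 2, 1 and 3 windows were called. At an adjusted p under 0.01, 135 members, 253 neighbour pairs and 2 synonymous pairs were called in the EJC-independent table, 0 members and 2 pairs in the EJC-enhanced table, and 1 window between them. Shares over all windows or pairs were worked out only for the main setting and, in the EJC-independent table, with TGG subtracted. Counts at the other settings therefore show only how the calls moved with the setting.

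Over all alternatives run, the EJC-independent excess stayed between 0.36 and 0.46, the EJC-enhanced between 0.02 and 0.07, and the difference between the reporters between 0.27 and 0.45. Chosen after the data were seen, leaving out arginine, valine and isoleucine as penultimate codon gave 0.39, 0.03 and 0.31. The depth of each library is unknown. Deposited errors made up 79.7% of the variance of EJC-enhanced members, and they were larger there also at like counts: 48 members after TCC had a median count of 1017 and a median error of 0.18 in the EJC-independent table, and 48 after CCC had 1053 and 0.34 in the EJC-enhanced table.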

Other observations

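The windows with a stop codon at bases 1 to 3, threonine at bases 4 to 6 and a stop codon again at bases 7 to 9 had mean responses of 2.15 (SD 0.98, 55 windows) in the EJC-independent table and 2.33 (SD 1.05, 98 windows) in the EJC-enhanced table. By the first stop codon, the windows that end in TGG had EJC-independent means of 2.10 for TAA (8 windows), 1.91 for TAG (9) and 2.34 for TGA (8), and EJC-enhanced means of 2.13 (12), 2.53 (13) and 2.19 (13). Apart from the values set beside some of them above, these windows entered no comparison between groups.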
